A study of Mus musculus with 8 samples.

Results

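The data described here are the RNA sequencing libraries of primary cell cultures grown from mouse cortex and labelled as astrocytes, 1 from WT mice and 1 from S89G-DMP1 mice. They are 2 of the 8 libraries of the series, and they were picked out by their labels. The other 6 libraries are neural stem cells (NSCs) and serve only as a reference level. With 1 library per genotype no difference below has a replicate check, no test between genotypes could be made, and the intervals given cover counting error only.

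Both cultures came from C57BL/6 animals labelled as 10 weeks old, and the study's methods give a slightly greater age for the mice used for astrocytes. S89G-DMP1 mice carry a knock-in point mutation that replaces serine 89 of dentin matrix protein 1 (DMP1), an acidic extracellular matrix protein, by glycine, in every cell and throughout life. The line was made in C57BL/6J embryonic stem cells, lost its selection cassette through a cross to Flp deleter females whose name includes 129S4, and was bred to homozygosity. The controls were wild-type C57BL/6 mice, and whether they were littermates is not given in the sources used here. Cortex of animals of both sexes was digested with papain, filtered, plated, and grown in DMEM with 10% fetal bovine serum. According to the labels the cells were identified as astrocytes by GFAP staining. How many animals or dishes went into each library is not given in the sources used here.

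Astrocytes are the glia that take up glutamate, buffer potassium and water, and cover blood vessels with their endfeet, where the water channel aquaporin 4 is concentrated. Cultures grown in serum from brain tissue can also hold microglia, fibroblasts of the meninges and of vessels, mural cells, endothelial cells and immature neural cells, and serum favours cells that divide and that make matrix. A gene list for each of these cell types was therefore read beside the astrocyte list. In bulk RNA, fewer cells of a type and less RNA per cell cannot be told apart.

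The mutated residue is shown first because it defines the genotype. Dmp1 lies on the plus strand of chromosome 5 in GRCm38 (chr5:104202613-104214102), and codon 89, counted from the start codon, lies in exon 6 of 6 at chr5:104211724-104211726. The reference transcript reads there as follows, with codon 89, a serine codon, in capitals.
Dmp1 reference coding sequence: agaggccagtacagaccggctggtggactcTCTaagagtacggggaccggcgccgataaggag
The count table holds no reads, so the base that each library carries at this codon was not examined and the genotype labels cannot be checked from it. The table does give the level of Dmp1. It had 2 counts in the WT library against 119 counts in the S89G-DMP1 library, or 0.158 and 8.26 CPM (counts scaled to a library of 1000000 assigned reads, after scaling of the libraries with edgeR's TMM factors). The S89G-DMP1 level was 52.3-fold higher, with a 95% exact binomial interval from 14.2 to 437 that covers counting error. In the NSC libraries, counted in a separate table, Dmp1 lay between 6.33 and 8.07 CPM in WT and between 1.28 and 2.51 CPM in S89G-DMP1 cells. The 2 cell types thus went opposite ways. The NSC libraries held only 2354615 to 2588130 assigned reads each, so their Dmp1 levels rest on few counts.

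A total of 14008670 reads were assigned to genes in the WT library against 13016924 in the S89G-DMP1 library, over 40562 genes. Of these genes, 15680 had at least 10 counts in either library and are called counted below. A gene is called higher or lower where the log2 ratio of S89G-DMP1 over WT, computed after TMM scaling with 2 added as prior count, reached 1 in size, which is a 2-fold difference. By this rule 2713 counted genes (17.3%) were higher and 2010 (12.8%) were lower in the S89G-DMP1 library, so that 57.4% of the called genes were higher. At 4-fold, 1354 genes (8.64%) were higher and 813 (5.18%) lower. Scaling by library size alone shifted the median of all genes from 0.01 to 0.30 on the log2 scale and made 69.7% of the called genes higher, with 3487 higher and 1515 lower. Ratios below are therefore relative to the TMM scale, and a list whose median changes sign by library size alone is named as such. For each list, the 17.3% and 12.8% over all counted genes are the shares to read its counts against.

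**Figure D1:**
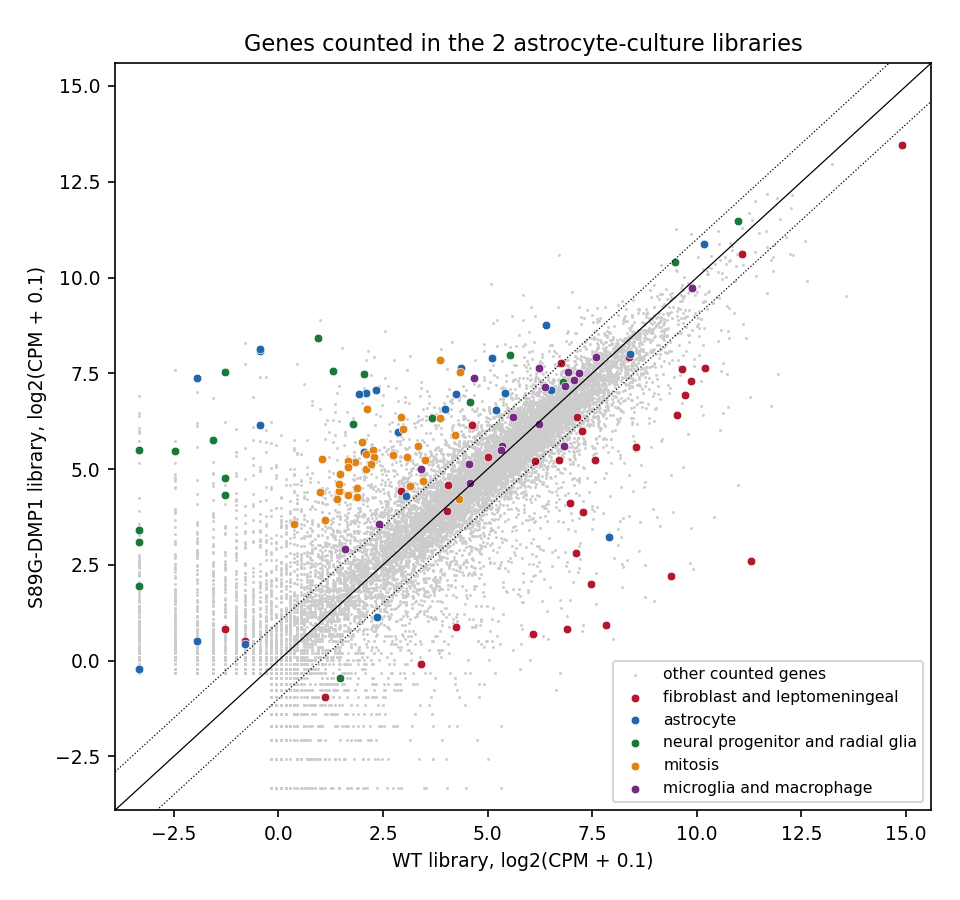
Level of each counted gene in the WT library (x axis) and in the S89G-DMP1 library (y axis), as log2(CPM + 0.1), with 5 gene lists in colour. The solid line marks equal levels and the dotted lines 2-fold differences. Most fibroblast and leptomeningeal genes lie below the lines, most mitosis and neural progenitor genes above them, and microglia genes near the line of equal levels.

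The astrocyte label was examined first. Of 30 genes known as astrocyte markers, 25 were counted, and 20 of them were higher and 2 lower in the S89G-DMP1 library, with a median log2 ratio of 2.62 (2.58 with the gene at 0 counts in WT set to a bound). Of the 18 with at least 10 counts in both libraries, which were not selected through 1 library, 13 were higher and 2 lower. Aqp4, the aquaporin of endfeet, had 8 counts in the WT library against 4051 in the S89G-DMP1 library, a 445-fold difference (95% exact binomial interval 226 to 1032). The glutamate transporter genes Slc1a3 (8 and 3877 counts) and Slc1a2 (51 and 621 counts) stood in the same order. So did Mlc1 (2 and 2399 counts) and Hepacam (8 and 1015 counts), which encode membrane proteins of astrocyte junctions. Aldh1l1, a folate enzyme widely used to mark astrocytes, had 47 and 1792 counts. In the WT library these defining markers thus had between 2 and 51 counts, and Ntsr2 and Slc7a10, further members, had 0.

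Gfap, the intermediate filament gene behind the staining, had 90 counts in the WT library against 901 in the S89G-DMP1 library, or 7.11 and 62.6 CPM, and was 8.80-fold higher in the latter (interval 7.08 to 11.1). Per length of gene, the deposited FPKM of Gfap was 3.44 in WT and 37.1 in S89G-DMP1, against 6744 and 3052 for Fn1, the fibronectin gene. Some astrocyte genes that other cells also use differed little. Glul (glutamine synthetase) had 335 and 258 CPM, Gja1 (a connexin) 92.0 and 133 CPM, and Apoe 1159 and 1884 CPM. Dio2, which activates thyroid hormone, went the other way with 3008 and 134 counts, as did S100b with 64 and 30. The 5 members under 10 counts in both libraries were Ranbp3l, Gjb6, Etnppl, Cldn10 and Slc7a10. The astrocyte list summed to 2117 CPM for WT and 4897 CPM for S89G-DMP1, and to between 3306 and 4171 CPM in the NSC libraries. The summed level therefore does not tell astrocytes from NSCs. Most counted astrocyte markers were higher in the S89G-DMP1 library. The WT library, though labelled as astrocytes, held few counts of the defining markers given above. With 1 library each, a difference between the genotypes and a difference in the cells that the 2 cultures held cannot be told apart. The names WT and S89G-DMP1 below are those of the labels.

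**Figure D2:**
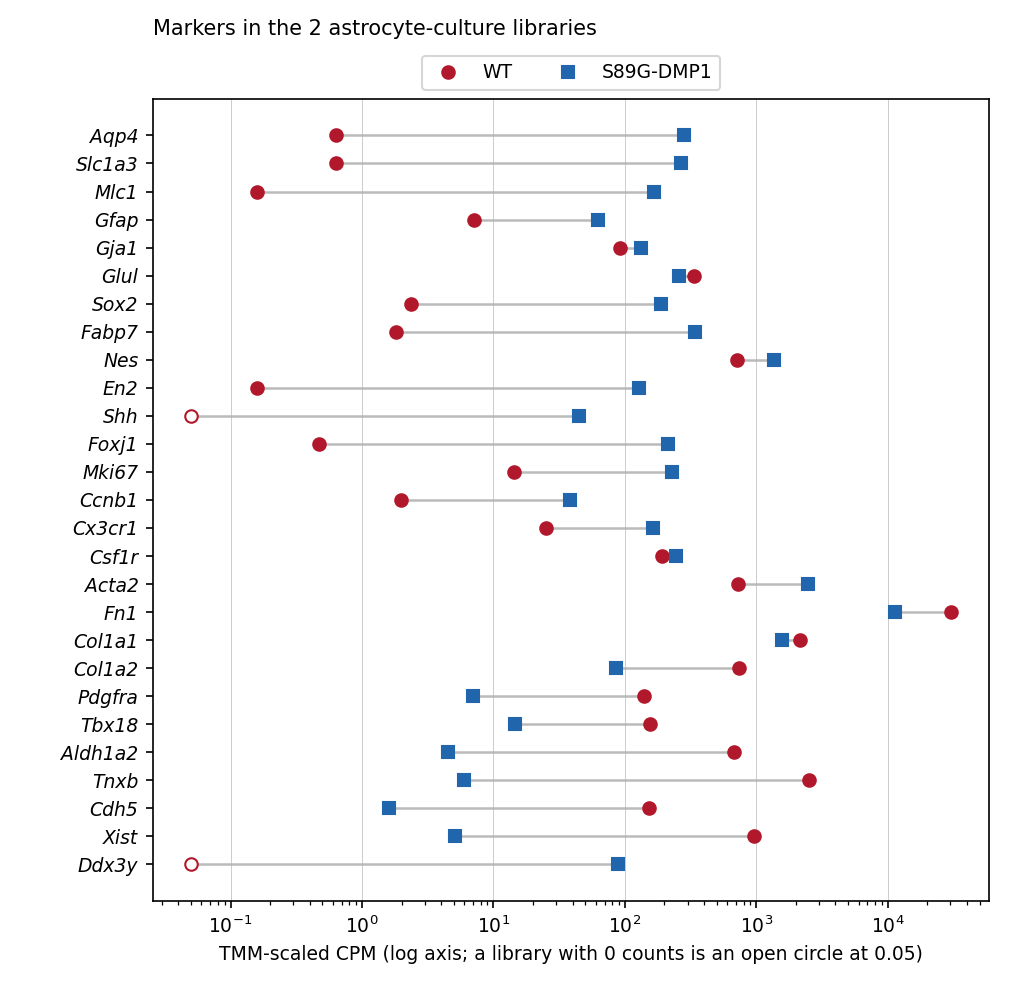
TMM-scaled CPM of 27 named markers in the WT library (circles) and the S89G-DMP1 library (squares) on a log axis, 1 library each, with an open circle where a library had 0 counts. The squares of Aqp4, Slc1a3 and Mlc1 lie between 167 and 281 CPM and their circles under 1 CPM, whereas Tnxb, Aldh1a2, Cdh5 and Xist show the reverse order.

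The scaffold that anchors aquaporin 4 at endfeet differed less than its cargo. Of 16 counted genes of this complex, 6 were higher and 0 lower, with a median of 0.32, and 3 were higher of the 13 with 10 counts in both libraries. The higher genes were Aqp4, Mlc1, Hepacam, Kcnj10 (the potassium channel Kir4.1, 62 and 1924 counts), Dtna (alpha-dystrobrevin, 277 and 1717 counts) and Sntb1 (a syntrophin, 17 and 90 counts). Dystroglycan (Dag1, 647 and 606 CPM), utrophin (Utrn, 361 and 316 CPM) and dystrophin (Dmd, log2 ratio 0.11) were close in both libraries.

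Neural progenitor and radial glia genes were higher in the S89G-DMP1 library for most counted members. Of 20 counted genes, 16 were higher and 1 lower, with a median of 5.43 (5.29 with genes at 0 counts set to their bounds). Of the 10 with at least 10 counts in both libraries, 7 were higher and 0 lower. Sox2, the transcription factor of neural stem cells, had 30 counts in WT and 2705 in S89G-DMP1 (79.3-fold, interval 55.4 to 118). Sox1 had 0 and 655 counts, at least 192-fold higher when the WT library is set to 3 counts. Fabp7, a fatty acid carrier of radial glia, had 23 and 4950 counts, Pou3f3 51 and 2575, and Pax6 42 and 1039. The oligodendrocyte lineage factors Olig1 (4 and 2691 counts) and Olig2 (3 and 782 counts) were also among the higher genes.

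Not every gene of this list separated the libraries. Nes, which encodes nestin, was abundant in both with 713 and 1368 CPM, and Tnc (tenascin C) had 2036 and 2873 CPM. Egfr reached 112 and 155 CPM. Fut4 was the lower member (34 and 9 counts), and Hes5, a Notch target typical of radial glia, had 0 counts in both libraries. The summed level of the 21 genes was 2959 CPM for WT and 6020 CPM for S89G-DMP1, a 2.03-fold difference, against 15555 to 16106 CPM in the WT NSC libraries.

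Transcription factors that place cells along the neural tube also differed. All 22 counted genes of the midbrain, isthmus and hindbrain list were higher in the S89G-DMP1 library, with a median of 4.85 (4.57 with genes at 0 set to their bounds), and 9 of them had at least 10 counts in both libraries. The other 13 were counted only through the S89G-DMP1 library, so that a difference was built into their selection. En2, which marks the midbrain-hindbrain border, had 2 and 1849 counts, En1 37 and 846, and Cnpy1, a neighbour of En2 in the genome, 0 and 1200. The floor plate genes Shh (0 and 643 counts), Foxa1 (2 and 689) and Foxa2 (1 and 328) had at most 2 counts in WT. Pax3 had 16 and 616 counts and Lmx1b 19 and 773. The other 7 members, among them Fgf8, Wnt1 and Lmx1a, stayed under 10 counts in both.

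Genes of the forebrain, the source of cortex, were split. Of 16 counted, 6 were higher and 5 lower, and the median was -0.58. With 10 counts required in both libraries, 2 were higher and 4 lower of 11. The factor genes Emx2 (105 and 18 counts) and Lhx6 (483 and 28) were lower in S89G-DMP1. Nr2f1 (254 and 1323 counts) and Lhx2 (51 and 202) were higher. Of 20 counted Hox genes, which pattern the hindbrain and spinal cord, 13 were higher and 1 lower, with a median of 1.88, but among the 6 with 10 counts in both libraries 1 was higher and 0 lower. Hoxa2, Hoxa3 and Hoxb3, which are active in the hindbrain, had 181, 208 and 154 counts in S89G-DMP1 and 1, 14 and 3 in WT. Hoxb9, a gene of more caudal levels, had 277 counts in WT and 5 in S89G-DMP1. The summed Hox level stayed low, at 36.7 CPM for WT and 79.3 CPM for S89G-DMP1, and was at most 0.42 CPM in any NSC library.

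Foxj1, the master gene of motile cilia, had 6 counts in WT and 3063 in S89G-DMP1. Of the 13 counted genes of ependyma and choroid plexus, 10 were higher and 2 lower, with a median of 2.83 (2.04 with genes at 0 set to their bounds), and 4 were higher of the 7 with 10 counts in both libraries. The list summed to 48.8 CPM for WT and 317 CPM for S89G-DMP1, and Foxj1 made up most of the latter. With 50 counts required in either library, 7 members were left. The cilia genes Tekt1 and Ccdc153 had 24 and 14 counts in S89G-DMP1 and 0 in WT, while the choroid plexus gene Ttr had 1 count in WT and 0 in S89G-DMP1.

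Genes of fibroblasts and the leptomeninges, the inner coverings of the brain, were abundant in the WT library. Of 34 counted genes, 22 were lower and 4 higher in S89G-DMP1, with a median of -2.18. Tnxb (tenascin X) had 31753 counts in WT and 86 in S89G-DMP1, a 420-fold difference (interval 340 to 525). Aldh1a2, the retinoic acid enzyme of the meninges, had 8497 and 65 counts. The meningeal transcription factor genes Foxd1 (2878 and 26), Foxc2 (1504 and 24), Tbx18 (1950 and 210) and Foxc1 (2411 and 545) were lower as well. Col1a2 had 738 and 85.0 CPM, Col3a1 1165 and 198 CPM, and Dcn (decorin) 805 and 196 CPM.

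The same genes were far from absent in the S89G-DMP1 library. The list summed to 42918 CPM for WT and 14593 CPM for S89G-DMP1, whereas the NSC libraries held between 386 and 598 CPM. Fn1 carried most of both sums, with 30490 and 11273 CPM, and was the most abundant gene of each library. Col1a1 differed by less than 2-fold, with 2158 and 1562 CPM. The higher members were Ogn (311 and 1029 counts), Fbln1 (95 and 309), Ptgds (4 and 24) and Aspn (6 and 19). Prrx1, a factor of mesenchymal cells, just missed the threshold (1375 and 3116 counts, log2 ratio 0.99). The part that fibroblast-type RNA plays in the other differences was not tested.

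**Figure D3:**
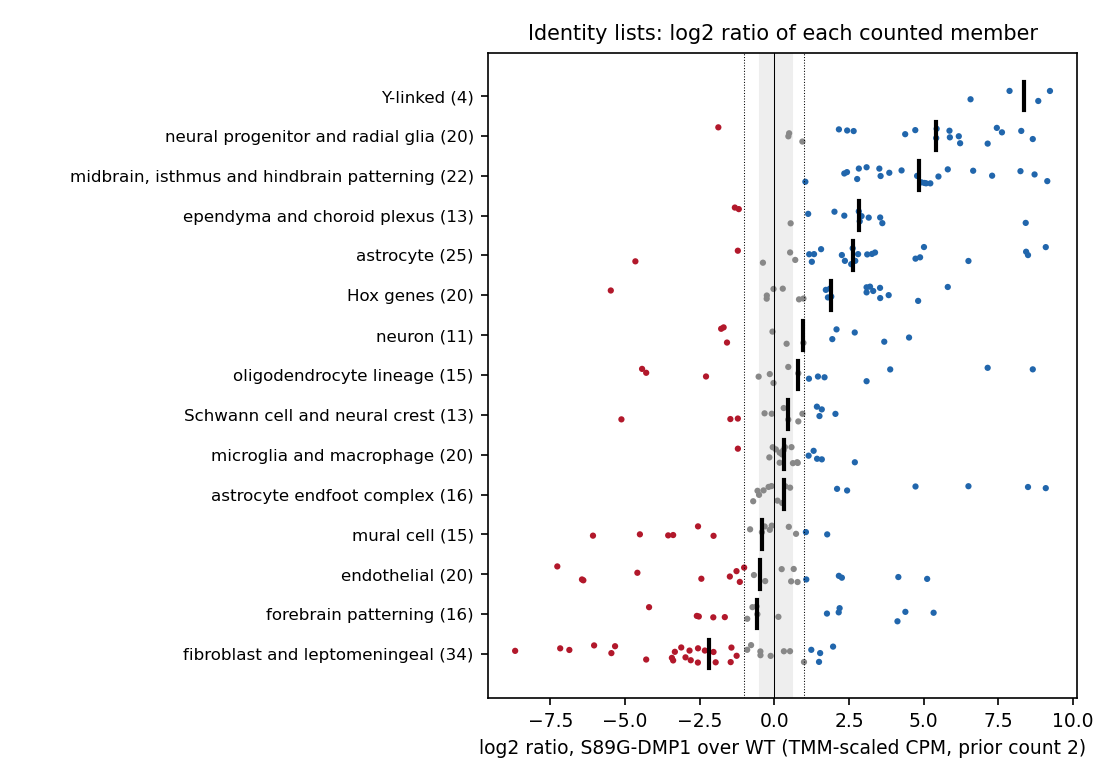
Log2 ratio of S89G-DMP1 over WT (x axis) for every counted member of 15 identity lists (points, with the number counted in parentheses) and the median of each list (black bar). Blue and red points are at least 2-fold higher and lower, and the grey band holds the middle 50% of all counted genes. The medians of the midbrain and hindbrain, progenitor and astrocyte lists lie to the right and those of the forebrain and the fibroblast and leptomeningeal lists to the left.

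Mural cell genes differed in both directions. Of 15 counted, 6 were lower and 2 higher, around a median of -0.41. Rgs5 (2431 and 39 counts), Des (379 and 17) and Pdgfrb (11765 and 2276) were lower, as was Myh11, a smooth muscle myosin (402 and 37). Acta2, smooth muscle actin, was higher with 723 and 2468 CPM, and Tagln was near equal. Kcnj8 and Higd1b, narrow pericyte markers, had 0 counts in both libraries, and Abcc9 had 10 and 8.

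Among the endothelial genes 9 were lower and 5 higher of 20 counted, with a median of -0.49. The list summed to 2125 CPM for WT and 230 CPM for S89G-DMP1, 9.26-fold apart. Eng (11770 and 157 counts), Thbd (11526 and 83) and Cdh5 (1917 and 23) made up that gap. Other endothelial markers were low in both libraries. Cldn5 and Sox17 had 0 counts in both, Tie1 had 1 and 0, and Pecam1 had 16 and 7. Mfsd2a, a lipid transporter of brain vessels that neural cells also use, was higher in S89G-DMP1 (10 and 467 counts).

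Microglia and macrophage genes, by contrast, were near equal in sum. All 20 members were counted, 5 were higher and 1 lower, and the median was 0.33. They summed to 2256 CPM for WT and 2716 CPM for S89G-DMP1, and to between 13.8 and 21.8 CPM in the NSC libraries. The receptor gene Csf1r had 191 and 244 CPM, Lyz2 945 and 842 CPM, and the complement gene C1qa 121 and 187 CPM. Cx3cr1, the fractalkine receptor of microglia, stood apart with 320 and 2372 counts. Tmem119 was the lower member, with 1434 and 699 counts.

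Other neural lists were low in both cultures. Of 11 counted neuronal genes 5 were higher and 3 lower (2 and 2 of the 6 with 10 counts in both libraries), and the list summed to 134 and 346 CPM. Map2 (105 and 2772 counts) and Stmn2 (272 and 1195) were higher, and Tubb3 (850 and 280) lower. The neuronal markers Rbfox3, Dcx and Snap25 stayed at or under 5 counts in both libraries. Of 15 oligodendrocyte lineage genes 7 were higher and 3 lower (1 and 2 of the 8 with 10 counts in both libraries), where Pdgfra (1755 and 100 counts) and Myrf (398 and 19) were lower and myelin genes such as Mbp (112 and 125) were near equal. Sox10, which marks oligodendrocyte and Schwann cells, had 41 and 83 counts. Of 13 genes of Schwann cells and neural crest 4 were higher and 3 lower, with Tfap2b lowest (1347 and 42 counts).

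**Figure D4:**
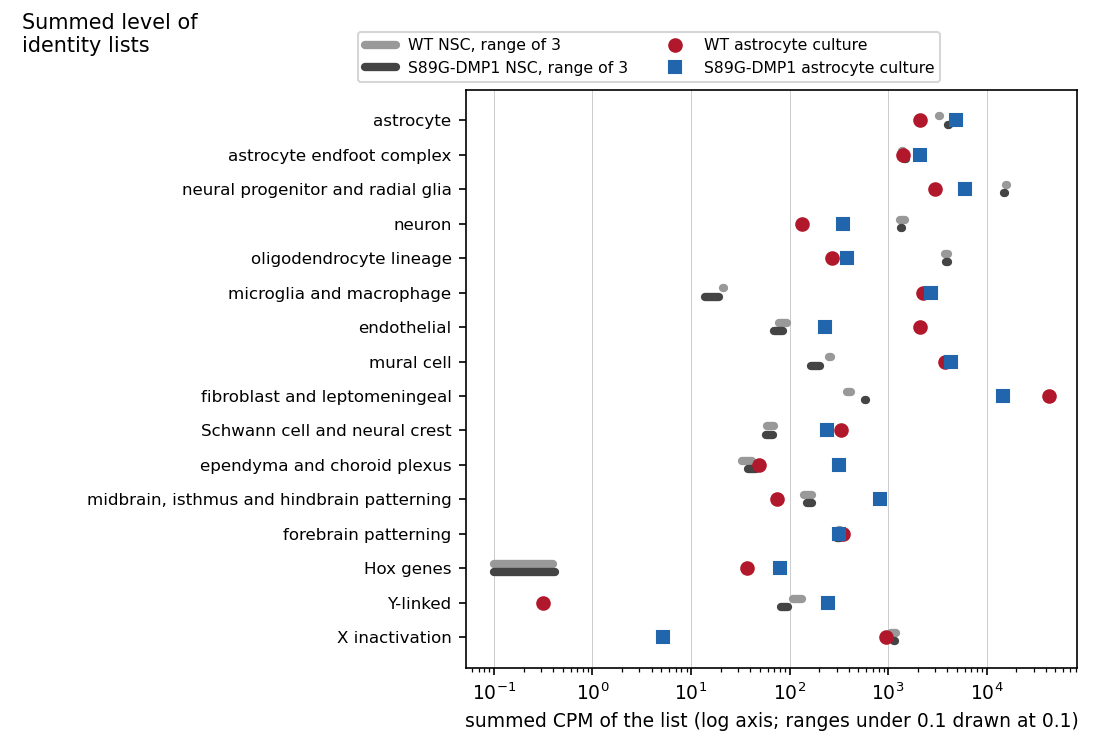
Summed CPM of 16 identity lists on a log axis in the WT astrocyte culture (red circles), the S89G-DMP1 astrocyte culture (blue squares) and the 3 WT and 3 S89G-DMP1 NSC libraries (grey and black bars, lowest to highest). The microglia and fibroblast lists are far above the NSC range in both cultures, and the Y-linked list is near 0 only in the WT culture.

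The libraries also differed in sex-linked RNA. Xist, the RNA that coats the inactive X chromosome, had 12172 counts in WT and 74 in S89G-DMP1 (187-fold, interval 149 to 238). Its antisense partner Tsix had 0 counts in both libraries. The Y-linked genes Ddx3y (0 and 1277 counts), Eif2s3y (0 and 973), Kdm5d (1 and 766) and Uty (3 and 525) showed the opposite order. The 7 Y-linked genes summed to 0.316 CPM for WT and 246 CPM for S89G-DMP1. All 6 NSC libraries held both, with Xist between 1075 and 1200 CPM and the Y-linked sum between 81.0 and 134 CPM. In the astrocyte cultures the sex of the cells and the genotype therefore cannot be told apart.

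Genes of both directions lay on every autosome. The share of counted genes that were higher ran from 12.5% on chromosome 19 to 23.2% on chromosome 3, and the share lower from 9.28% on chromosome 8 to 16.4% on chromosome 6. The median log2 ratio lay between -0.14 on chromosome 10 and 0.23 on chromosome 3 over the 19 autosomes. On the X chromosome 99 of 527 counted genes (18.8%) were higher and 64 (12.1%) lower, with a median of 0.10. On the Y chromosome 5 of 8 counted genes were higher.

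The NSC libraries gave a second view of the genes that differed, since their levels took no part in the call. Over 15666 genes present in both tables, Spearman's rank correlation with the 6 NSC libraries was between 0.789 and 0.799 for the S89G-DMP1 culture and between 0.685 and 0.696 for the WT culture. This is a correlation across genes between tables that were made separately, and genes are not replicates. Of 2707 genes higher in the S89G-DMP1 culture, 47.6% reached 5 CPM in every NSC library, against 32.4% of the 2010 lower genes. The share was 75.0% for the genes with neither call and 64.8% over all 15666. Among genes at least 4-fold higher it was 47.0%, and among those at least 4-fold lower 18.0%. These sets were not matched for level, on which such a share depends.

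Genes of cell division were higher nearly throughout. All 35 genes of the mitosis list were counted, and 34 of them were at least 2-fold higher, none lower, around a median of 2.98. Mki67, the proliferation marker Ki-67, had 183 counts in WT and 3312 in S89G-DMP1 (15.9-fold, interval 13.7 to 18.6). Cenpf, a kinetochore protein gene, had 54 and 1360 counts. Ccnb1, cyclin B1, had 25 and 548 counts, and Top2a, the topoisomerase that untangles chromosomes, 254 and 2659. Only Pttg1, the securin gene, did not reach 2-fold (250 and 268 counts). Summed over the list, mitosis genes gave 229 CPM for WT and 1643 CPM for S89G-DMP1, which was still below the 6053 to 7692 CPM of the NSC libraries.

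Mitotic genes share promoter elements, and they were higher together here, so their promoters were searched. The windows ran from 250 bases before to 50 after the start of each gene in RefSeq (GRCm38.p6), and 29 of the 35 mitosis genes had 1. The CCAAT box (CCAAT) and the cell cycle genes homology region, called CHR (TTTGAA or TTCGAA), were sought on both strands. Both were present in 20 of the 29 promoters (69.0%), against 7.70% of the 27025 promoters of all genes. For the CHR alone the shares were 75.9% and 19.4%. Among other lists the CHR was found in 0 of 26 astrocyte, 2 of 17 progenitor (11.8%), 6 of 26 DNA replication (23.1%) and 8 of 28 fibroblast and leptomeningeal promoters (28.6%). A match describes these letters only. The windows of the 3 mitosis genes with the largest ratios among those with both elements are printed to show how close the elements lie to the start, with each match in capitals.
Cenpf, chr1:189688037-189688336, minus strand: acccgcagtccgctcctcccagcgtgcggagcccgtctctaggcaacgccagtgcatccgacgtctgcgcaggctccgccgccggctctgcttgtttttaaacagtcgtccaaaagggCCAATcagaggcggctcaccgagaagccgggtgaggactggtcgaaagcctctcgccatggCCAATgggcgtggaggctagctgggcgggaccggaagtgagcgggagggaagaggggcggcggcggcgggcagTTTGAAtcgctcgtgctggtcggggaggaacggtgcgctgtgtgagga
Mki67, chr7:135716330-135716629, minus strand: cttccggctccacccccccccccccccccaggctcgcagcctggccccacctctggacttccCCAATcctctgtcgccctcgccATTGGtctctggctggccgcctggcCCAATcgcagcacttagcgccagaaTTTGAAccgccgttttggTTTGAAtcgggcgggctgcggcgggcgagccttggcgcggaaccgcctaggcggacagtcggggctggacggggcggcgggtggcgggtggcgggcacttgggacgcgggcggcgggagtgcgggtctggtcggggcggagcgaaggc
Kif23, chr9:61946750-61947049, minus strand: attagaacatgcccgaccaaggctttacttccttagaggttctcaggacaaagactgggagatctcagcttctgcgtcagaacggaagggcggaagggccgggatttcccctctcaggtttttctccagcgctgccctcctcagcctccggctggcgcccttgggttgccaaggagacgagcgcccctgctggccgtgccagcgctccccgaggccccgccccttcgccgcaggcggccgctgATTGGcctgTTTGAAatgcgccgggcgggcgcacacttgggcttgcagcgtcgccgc

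DNA replication genes differed in the same direction by less. Of 33 counted, 21 were higher and 0 lower, with a median of 1.22. Uhrf1, which helps copy DNA methylation, had 129 and 669 counts, Mcm10 43 and 183, and the helicase gene Mcm2 249 and 770. Pcna, the replication clamp, had 574 and 1187 counts and stayed under 2-fold (0.86). Gins3, Gins4 and Pola2 were near equal in both libraries.

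Genes that restrain the cycle or accompany senescence were split, with 7 higher and 6 lower of 22 counted. Cdkn1a (p21) and Cdkn2a, the best known senescence inhibitors, had 448 and 531 CPM and 62.6 and 41.2 CPM. Igfbp7 (19081 and 938 counts) and Il6 (212 and 3) were lower in S89G-DMP1. Igfbp5 (1313 and 22028 counts), Igfbp3 (225 and 4616) and Lmnb1 (155 and 886), the lamin gene often lost in senescent cells, were higher. The median of this list, -0.18, became 0.11 by library size alone.

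Reactive astrocyte genes differed in both directions. Of 13 pan-reactive genes 5 were higher and 4 lower, with S1pr3 (101 and 1686 counts), Gfap and Serpina3n (23 and 98) higher and Aspg (504 and 3), Timp1 (5829 and 1066) and Hspb1 (3497 and 636) lower. Vim, the vimentin gene, had 2685 and 4062 CPM. Of 12 counted genes of the neuroinflammatory set called A1, 6 were lower and 3 higher, around a median of -1.02. C3, the complement gene most used to mark it, had 104 and 985 counts, while Serping1 (2087 and 393) and Gbp2 (744 and 212) were lower. Of 11 genes of the ischemia set called A2, 4 were lower and 3 higher, with Ptgs2 (8404 and 410 counts) lowest and B3gnt5 (7 and 293) highest, and its median turned from -0.20 to 0.09 by library size alone. Many of these genes are also used by microglia and fibroblasts.

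Interferon and MHC class I genes leaned lower, with 9 lower and 2 higher of 30 and a median of -0.59. By library size alone 6 were lower and 3 higher. The antigen presentation genes B2m (13240 and 6327 counts), H2-K1 (2891 and 1170) and H2-D1 (3470 and 1378) were lower, whereas the virus response genes Irf7 (115 and 127) and Isg15 (223 and 195) were near equal. Chemokines and inflammatory adhesion genes showed larger values in both directions, with 12 lower and 7 higher of 25, and 8 and 3 of the 17 with 10 counts in both libraries. Cxcl12, which the meninges secrete, had 5521 and 362 counts, Icam1 2313 and 186, and Ccl2 333 and 54. In the other direction Il33, an alarmin of glia, had 6 and 4502 counts, and Cxcl15 0 and 1735 counts (at least 508-fold). Cx3cl1, the ligand of the fractalkine receptor, had 849 and 3393 counts.

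Complement and coagulation genes had the lowest median of the state lists, -1.85, with 19 lower and 2 higher of 27 counted. Their sum was 11442 CPM for WT and 2651 CPM for S89G-DMP1. Besides Thbd, the genes Tfpi (5504 and 80 counts) and Procr (524 and 32), which restrain clotting, and C4b (1241 and 105) of complement were lower. C3 and Plat (tissue plasminogen activator, 1751 and 5380 counts) were the higher members. C1qa, C5ar1 and Cfp, genes of macrophages, were within 2-fold.

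**Figure D5:**
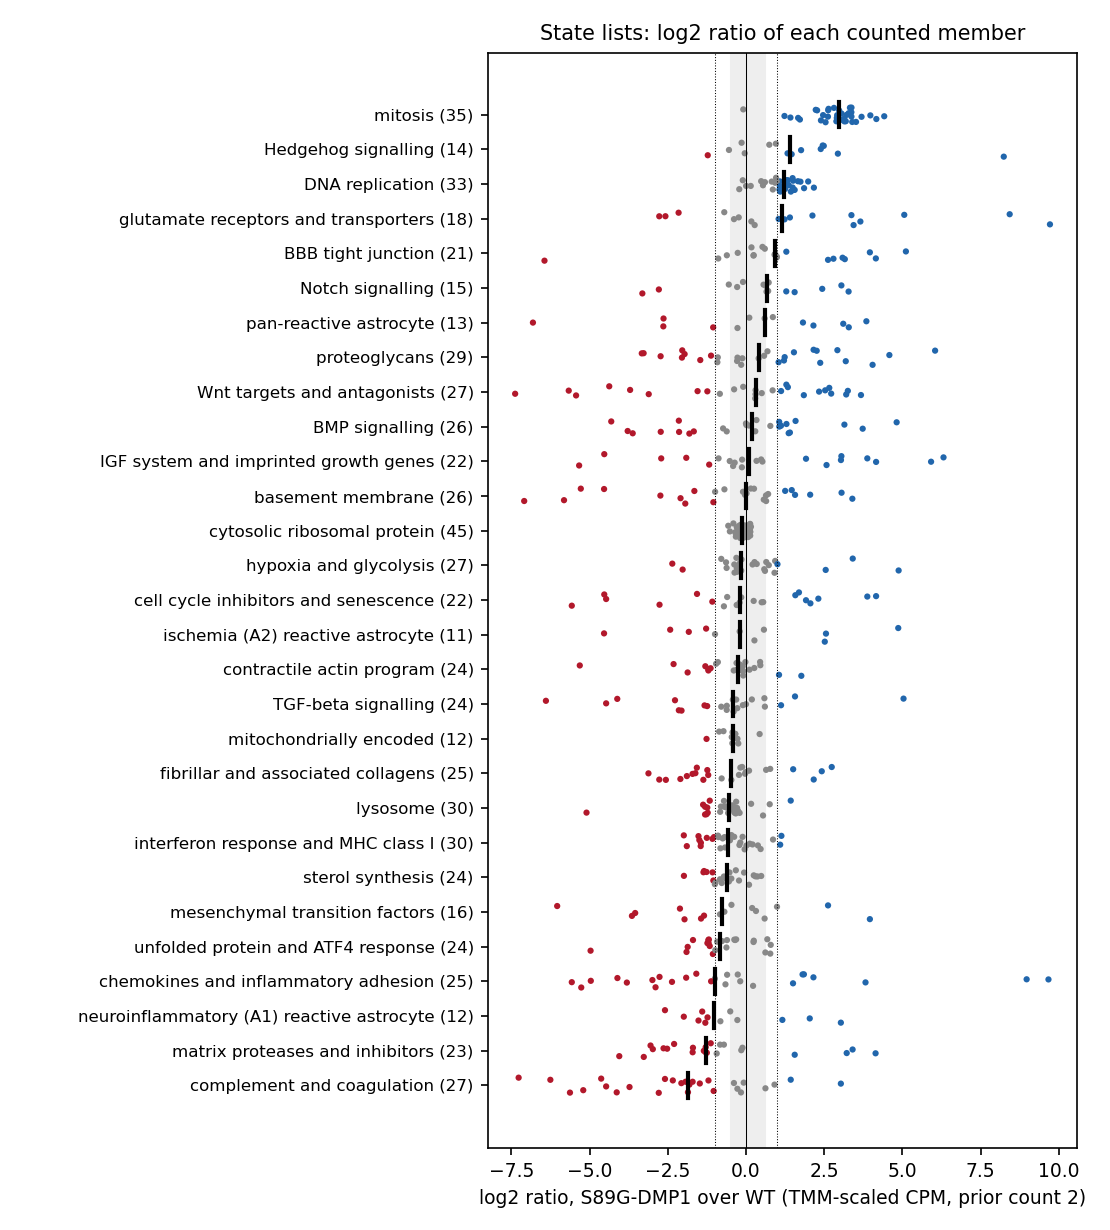
Log2 ratio of S89G-DMP1 over WT (x axis) for every counted member of 29 state lists (points, with the number counted in parentheses) and the median of each list (black bar). Colours and the grey band are as for the identity lists. Mitosis is highest with a median of 2.98, complement and coagulation lowest with -1.85, and ribosomal protein genes lie within 2-fold of equality.

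Of 25 counted genes of fibrillar collagens and their enzymes, 11 were lower and 4 higher, around a median of -0.47. Besides Col1a2 and Col3a1, the cross-linking enzymes Lox (13519 and 3596 counts), Loxl1 (3556 and 1091) and Loxl2 (10366 and 3608) were lower. Col11a1 (378 and 2317 counts), Col14a1 (42 and 332) and Col2a1 (317 and 1031) were higher, and Serpinh1, the collagen chaperone, was equal in level (log2 ratio 0.00). In sum the list had 11898 CPM for WT and 6218 CPM for S89G-DMP1.

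Basement membrane genes, the sheet between endfeet and vessels, split with 6 higher and 9 lower of 26 counted, and their median of -0.01 became 0.28 by library size alone. Col4a1 (41432 and 11062 counts), Col4a2 (29067 and 4965) and Nid1 (19290 and 5720) were lower, as were Smoc1 (5521 and 44), Lama1 (1094 and 20) and Lama2 (6151 and 2230). Lama5 (609 and 7346 counts), Nid2 (740 and 3502) and Col4a6 (996 and 3130) were higher. Lamb2 and Lamc1 were within 2-fold. Taken over the list, the level was 19202 CPM for WT and 11892 CPM for S89G-DMP1.

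Proteoglycans differed in both directions. Of 29 counted, 12 were higher and 8 lower, with a median of 0.41. The chondroitin sulfate proteoglycans of brain, Ncan (73 and 5633 counts), Bcan (36 and 711), Vcan (835 and 8695) and Ptprz1 (301 and 1541), were higher, together with their linker Hapln1 (0 and 49). The small leucine-rich proteoglycans of connective tissue, Bgn (80542 and 13831 counts), Dcn (10196 and 2826), Prelp (21283 and 8800) and Lum (238 and 25), were lower. Ogn and Aspn, of the same family, went against them as given above.

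Matrix proteases and their inhibitors were lower for 14 and higher for 4 of 23 counted genes, with a median of -1.29. Their sum differed 6.24-fold, from 19859 CPM for WT to 3181 CPM for S89G-DMP1. Timp3, an inhibitor held in the matrix, made up most of it with 12134 and 733 CPM. The gelatinase gene Mmp2 had 8954 and 1292 counts and Mmp14, which activates it, 9477 and 3330. Mmp15 (105 and 1132 counts), Adamts9 (38 and 480) and Timp4 (12 and 277), an inhibitor known from brain, were higher.

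The contractile program was largely shared. Of 24 genes 7 were lower and 2 higher, and the median of -0.25 became 0.04 by library size alone. Tagln (1379 and 1300 CPM), Tpm1 and Vcl were near equal. Ccn2, a target of the Hippo effector YAP, had 27870 and 6376 counts and Ankrd1, another, 806 and 21, yet Ccn1, also a target, had 9933 and 12229. Of 16 counted mesenchymal transition factors 7 were lower and 2 higher, around a median of -0.76. Snai1 (945 and 84 counts) and Tbx15 (726 and 69) were lower, whereas Snai2, Twist1, Zeb1 and Zeb2 stayed within 2-fold. The higher genes were the cadherins Cdh2 (1625 and 11415 counts) and Cdh1 (4 and 102).

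Of 14 counted Hedgehog genes 8 were higher and 1 lower, with a median of 1.40, and 5 were higher of the 11 with 10 counts in both libraries. The ligand Shh is given above, and the genes that report pathway activity, Gli1 (19 and 180 counts) and Ptch1 (382 and 2449), were higher with it, while Hhip missed 2-fold (139 and 309, log2 ratio 0.96). Of 27 counted Wnt targets and antagonists 11 were higher and 8 lower, with a median of 0.31. The feedback target Axin2 (84 and 644 counts), Tcf7 (120 and 498) and Lgr5 (2 and 40) were higher, Nkd1 missed the threshold (42 and 88), and Sp5 (55 and 1) and Nkd2 (1717 and 148) were lower. The antagonists were split between Frzb (3236 and 20 counts) and Dkk2 (3752 and 82), which were lower, and Sfrp1 (651 and 4298) and Wif1 (195 and 1131), which were higher.

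BMP genes were divided, with 10 higher and 8 lower of 26 counted. The Id genes, which report BMP activity, were higher for Id4 (55 and 858 counts), Id2 (833 and 2329) and Id1 (890 and 2124) and equal for Id3. The ligand Bmp7 (1722 and 97 counts), the antagonist Grem1 (2356 and 216), and the inhibitory Smad6 (2030 and 726) and Smad7 (2332 and 598) were lower. Of 24 TGF-beta genes 8 were lower and 3 higher, around a median of -0.41, and their sum was 13458 CPM for WT and 4325 CPM for S89G-DMP1. Ltbp2 (21718 and 1425 counts), Inhba (1993 and 469) and Thbs1 (44548 and 20244) were lower, and Tgfb3 (666 and 2252) and Nrep (26 and 1040) higher, while the receptor genes Tgfbr1 and Tgfbr2 and the Smad2, Smad3 and Smad4 genes were within 2-fold. Of 15 counted Notch genes 5 were higher and 2 lower. Notch1 (588 and 3638 counts), Hey1 (52 and 594) and Dlk1 (54 and 525) were higher, and the ligand Jag1 (3130 and 515) lower.

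Glutamate receptors and transporters were higher for 10 and lower for 3 of 18 counted genes, with a median of 1.14, and for 3 and 2 of the 10 genes with 10 counts in both libraries. Gria1, an AMPA receptor subunit, had 1 count in WT and 2753 in S89G-DMP1 (2420-fold, interval 434 to 95627). With the prior count of 2, its log2 ratio of 9.72 was the largest of all counted genes. Cxcl15 (0 and 1735 counts) was close at 9.67. The order of these 2 genes depends on the prior count, since Cxcl15 has no finite ratio without it. Gria2 had 2 and 145 counts, while Gria3 (2422 and 3344) and Gria4 (483 and 620), subunits of the same receptor, were present in both. Grik3 (1325 and 219 counts) and the glutamine transporter Slc1a5 (606 and 114) were lower.

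Genes of the IGF system and imprinted growth genes had 8 higher and 5 lower of 22. The imprinted genes H19 (5 and 621 counts), Mest (55 and 3913), Peg10 (807 and 5488) and Plagl1 (72 and 688) were higher, Meg3 (7665 and 3861) was lower, and Peg3, Ndn and Igf2 were within 2-fold. Igf1, a growth factor gene of macrophages and fibroblasts, had 6835 and 2071 counts. Of 21 counted junction genes 8 were higher and 1 lower, with a median of 0.94, and 4 were higher of the 16 with 10 counts in both libraries. Cdh4 (31 and 1293 counts), Ocln (1 and 56) and Cldn1 (23 and 251) were higher. Tjp1, which encodes ZO1, stayed within 2-fold with 208 and 317 CPM, and the claudin of brain endothelium, Cldn5, was not detected.

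Genes of protein folding stress and of the ATF4 response leaned lower, with 10 lower and 0 higher of 24 and a median of -0.84. By library size alone 4 were lower and 2 higher. Slc7a11, the cystine transporter gene, was far below the rest with 3714 and 133 counts, followed by Ddit3 (835 and 253), Chac1 (168 and 51) and Trib3 (169 and 58). The enzymes of serine synthesis Phgdh and Psat1 lay on the other side of 0 without reaching 2-fold (0.79 and 0.68). Lysosome genes were lower for 8 and higher for 1 of 30 (4 and 2 by library size alone), with a median of -0.54. Among them Ctsk (1085 and 34 counts) was lowest. Sterol synthesis genes were lower for 6 and higher for 0 of 24 (3 and 0 by library size alone), with a median of -0.61. Sqle, an enzyme of the path, had a log2 ratio of 0.37.

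Basic metabolism was close between the cultures. Of 27 counted glycolysis and hypoxia genes 4 were higher and 2 lower, and the median of -0.14 became 0.15 by library size alone. Aldoc (53 and 1838 counts), an aldolase of astrocytes, Slc2a3 (58 and 724) and Ndrg1 (323 and 2162) were higher, and the hypoxia targets Vegfa (3352 and 936) and Adm (1100 and 243) lower. Of 45 counted ribosomal protein genes 0 passed 2-fold in either direction, with ratios from -0.57 to 0.16. Their median of -0.11 became 0.18 by library size alone. The mitochondrially encoded genes summed to 26304 and 20484 CPM, and 1 of 12 counted, mt-Nd3 (312 and 147 counts), passed 2-fold.

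Outside the lists, the largest ratios belonged to genes of the same kinds. Among genes with at least 10 counts in both libraries, Mt3, the metallothionein of brain, had 24 and 6777 counts. Ntrk2, the receptor TrkB, had 18 and 2149 counts. Stc1, a secreted glycoprotein, had 35 and 4141 counts. On the lower side Moxd1 had 6413 and 41 counts, and Efemp1, a fibulin of the matrix, 17171 and 192. Prdm6 and A4galt had 0 and 7 counts in the S89G-DMP1 library, from 282 and 1259 in WT.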

How the data were processed

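RNA sequencing libraries from 1 WT and 1 S89G-DMP1 cortical astrocyte culture were compared. Per the methods, low-quality and adapter-containing reads were discarded by the authors, who aligned paired reads with TopHat2 2.0.9 on a Bowtie2 2.0.6 index (versions from the submitters' processing notes), and deposited read counts for each gene together with FPKM. The FPKM values were made by the authors from these counts and gene lengths. The counting program, its use of strand, the genome build and the annotation are not given in the sources used here, and overlapping genes are therefore uncertain. The NSC counts deposited by the authors were used as levels only, and the NSC TPM table was not used.

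Ensembl identifiers were matched to GENCODE M21 symbols (39973 of 40562, and 15616 of the 15680 counted). Factors came from edgeR 4.0.16 (R 4.3.3) and all else from Python 3.11.15 with scipy 1.17.1. Counts were scaled by TMM, and log2 ratios used a prior count of 2 over genes reaching 10 counts in 1 library or both. The threshold was 2-fold. Ratio intervals are 95% Clopper-Pearson intervals of the read share. A library at 0 counts was set to 3 counts for a bound. Reads are not independent molecules, so intervals and bounds cover counting error only. Counts were 14008670 in WT and 13016924 in S89G-DMP1, and 0 columns lacked a sample. The procedure was tested on simulated data.

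The comparison and the 45 gene lists (968 genes, of which 966 were in the table and 862 counted) were chosen with earlier results of these data known, and some lists hold genes with extreme ratios, so that their counts are no independent evidence. The genes named are list members, Dmp1, the 10 largest ratios in each direction (over all counted genes, and over genes with 10 counts in both libraries) and the 10 most abundant genes. For Dmp1, the codon position came from GENCODE M21 (GRCm38). The alternatives were library size, RLE factors, other priors, filters and thresholds, and log2(FPKM + 1) or log2(FPKM + 0.1). Some members of the lists are not reported by name here.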

Additional observations from a re-analysis of the deposited data

Results flagged for a closer look

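The summed level of 12 of the 45 lists, and Dmp1, went 1 way in the astrocyte cultures and the other way in the NSC libraries. There, all 3 S89G-DMP1 libraries lay on 1 side of all 3 WT libraries. Other lists went the same way in both cell types. Among them, astrocyte, mitosis and DNA replication sums were higher in S89G-DMP1, and complement and coagulation, TGF-beta and basement membrane sums lower. In further lists the NSC ranges of the genotypes overlapped. The difference between the cell types was not tested, since the astrocyte side has 1 library per genotype. Of the 12 lists, 3 were at least 2-fold apart in the astrocyte cultures. The summed CPM of neural progenitor and radial glia genes had a log2 ratio of 1.02 in the astrocyte cultures, while the NSC sums were 14860 to 15466 CPM in S89G-DMP1 and 15555 to 16106 CPM in WT. The fibroblast and leptomeningeal sum had a log2 ratio of -1.56 in the astrocyte cultures, and 587 to 598 CPM in S89G-DMP1 against 386 to 423 CPM in WT NSCs. For the Y-linked genes the log2 ratio of the sums was 9.60 in the astrocyte cultures, and the NSC sums were 81.0 to 96.3 CPM in S89G-DMP1 and 108 to 134 CPM in WT. Dmp1 had a log2 ratio of 4.78 in the astrocyte cultures, where its WT level rests on 2 counts. It was lower in every S89G-DMP1 NSC library than in any WT NSC library, where its levels also rest on few counts. The sums of the other 9 lists were less than 2-fold apart in the astrocyte cultures. Their log2 ratio there was above 0, with lower NSC sums in S89G-DMP1, for microglia and macrophage genes (0.27), mural cell genes (0.21), pan-reactive astrocyte genes (0.23) and Hedgehog signalling (0.81). It was below 0, with higher NSC sums in S89G-DMP1, for interferon and MHC class I genes (-0.999), the unfolded protein and ATF4 response (-0.57), sterol synthesis (-0.44), A1 reactive astrocyte genes (-0.038) and ribosomal protein genes (-0.13). The higher mural sum rests on Acta2, while 11 of the 15 counted mural genes were lower, and the higher pan-reactive sum rests on Vim. The NSC sums of Hedgehog genes lay close together, at 576 to 584 CPM in S89G-DMP1 and 586 to 591 CPM in WT. The values for the microglia, mural, pan-reactive, A1 and ribosomal protein lists are smaller in size than the shift of all genes by library size alone.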

How the results depend on the processing

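The number of genes at least 2-fold higher and lower, 2713 and 2010 by TMM, was 3487 and 1515 by library size alone, 2747 and 1977 with RLE factors, and 2820 and 2061 with a prior count of 0.5. Requiring 10 counts in both libraries gave 1591 and 1475, and 50 counts in either gave 1824 and 1477. Without a filter the numbers were 3585 and 3013. With log2(FPKM + 1) they were 2274 and 1020, and with log2(FPKM + 0.1) 3437 and 1479. At 1.5-fold they were 3967 and 3327, and at 4-fold 1354 and 813. Of 884 genes that could be named, 509 were at least 2-fold apart. None of these changed sign, which a change of scale smaller than the threshold cannot bring about. Of the other genes, 95 changed sign by library size alone and 95 with either FPKM scale, 2 with RLE factors and 0 with a prior count of 0.5. Of the 509, the number still 2-fold apart was 464 by library size alone, 508 with RLE factors, 509 with a prior count of 0.5, 400 with log2(FPKM + 1) and 459 with log2(FPKM + 0.1). Of 90 counts over lists, 12 moved by over 1.5 times by library size alone and 22 when 10 counts were required in both libraries, which drops genes near 0 in 1 library. At the 4-fold threshold 40 moved, at 1.5-fold 17, with log2(FPKM + 1) 19 and with log2(FPKM + 0.1) 12. With 50 counts in either library 10 moved, without a filter 2, and 0 with RLE factors or a prior count of 0.5. No paired analysis was possible because the astrocyte comparison has 1 library per genotype, and leaving out a library was not possible either. Depth limits the precision for genes near 0 counts, Dmp1 and most Hox genes among them.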
